A study of Mus musculus with 10 samples.

Results

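Ribosomal protein genes encode the proteins that, with ribosomal RNA, build the cytoplasmic ribosome. Here they were taken as all genes of the splicing event table whose symbol is Rpl or Rps with a number (an added a, l or x allowed), or Rplp0, Rplp1 or Rplp2, which leaves out the S6 kinases (Rps6k). The rule found 78 genes of 26264 in the table, 48 of the large and 30 of the small subunit. They carried 1717 of 661162 splicing events. Rpl10l was not analysed here.

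The study sequenced polyadenylated RNA from 2 mouse systems. N2A cells, an established neuroblastoma line, were transfected with 40 nM of a non-targeting siRNA pool (siNT, n = 3) or of a pool against Qk (siQk, n = 3), the gene of the RNA-binding splicing regulator Quaking, and harvested 72 h later. Neurons of the glutamatergic type, made in vitro from mouse ES cells, stayed untreated (n = 2) or received 100 uM cycloheximide, an inhibitor of translation, for 12 h on day 7 in vitro (n = 2). No sample carries a deletion or a transgene in the labels, and the N2A replicates are labelled as biological replicates. In bulk RNA, fewer cells of a type and less RNA per cell cannot be told apart. The knockdown leaves some Qk RNA and rests on 1 siRNA pool in 1 line.

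Both subunits need their proteins in set proportions, and ribosomal protein genes are usually expressed together. They are among the most active genes of growing cells. Their mRNAs are short, start with a run of pyrimidines (the 5′ terminal oligopyrimidine, or TOP, motif) through which the mTOR pathway controls their translation, and many of their introns host small nucleolar RNAs (snoRNAs), which guide the modification of ribosomal RNA. Several members limit their own output through alternative splicing coupled to nonsense-mediated decay, the pathway that removes mRNAs with an early stop codon and that needs translation.

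Exon-event reads numbered 26595944 to 80481173 per N2A library, and spliced reads across introns 18602024 to 57139729. Qk coverage was 90.8, 82.8 and 82.5 CPM (reads of a gene scaled to the same total of reads in each library) in siNT 1 to 3 and 8.17, 12.3 and 13.0 in siQk 1 to 3, a log2 fold change of -2.91 (SE 0.16, limma adjusted p = 0.00030). Of 15 neuroblastoma and neuron markers, 12 reached 1 CPM, with a summed level of 3774 to 4190 CPM in siNT and 4025 to 4756 in siQk. The lists for fibroblasts, astrocytes, oligodendrocytes, microglia and pluripotent cells each summed to at most 3.69 CPM in any library, with 11 of their 25 genes at 0. Pecam1 carried most of the endothelial list, which summed to 4.87 to 7.42 CPM in siNT and 8.54 to 10.9 in siQk, with Kdr at 0; its part in the results was not tested. The libraries siNT 2 and siQk 1 stood apart from the other 4 in the short ribosomal protein genes, and results that rest on them are given with and without them.

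Levels of the 78 genes were compared as spliced reads per junction, the median over a gene's introns of the reads that join the flanking exons, in CPM of all such reads. The median gene stood at 204, and the quartiles were 117 and 296. Rps2, a protein of the mRNA entry region of the small subunit, was highest, with 753, 909 and 827 in siNT 1 to 3 and 775, 948 and 886 in siQk 1 to 3. Rplp0, the base of the large subunit's stalk, which recruits translation factors, followed with 699, 847 and 733 in siNT and 764, 669 and 691 in siQk. The ranges of these neighbours over the 6 libraries overlapped. Rpl8, Rpl13 and Rpl7a came next, with means of 569, 527 and 442 over the 6 libraries, and the ranges of Rplp0, Rpl8 and Rpl13 overlapped in turn, while every Rpl13 value lay above every Rpl7a value.

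The 3 genes at the bottom are paralogs of other members. Rps27l, a p53-responsive copy of Rps27, stood at a mean of 14.7 on this per-junction scale. Rpl39l, known as a testis form of Rpl39, stood at 3.15, and Rpl3l, the striated-muscle form of Rpl3, at 0.0884. Their parents Rps27, Rpl39 and Rpl3 stood at 48.1, 52.3 and 253. The highest value of each paralog lay below the lowest of its parent. Along the whole order, neighbours failed to overlap in 3 places, between Rpl13 and Rpl7a, Rps27l and Rpl39l, and Rpl39l and Rpl3l. Many of these genes have near-identical processed copies in the genome, and the sources used here do not say how reads matching several places were counted, so levels between genes are uncertain to that extent.

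**Figure D1:**
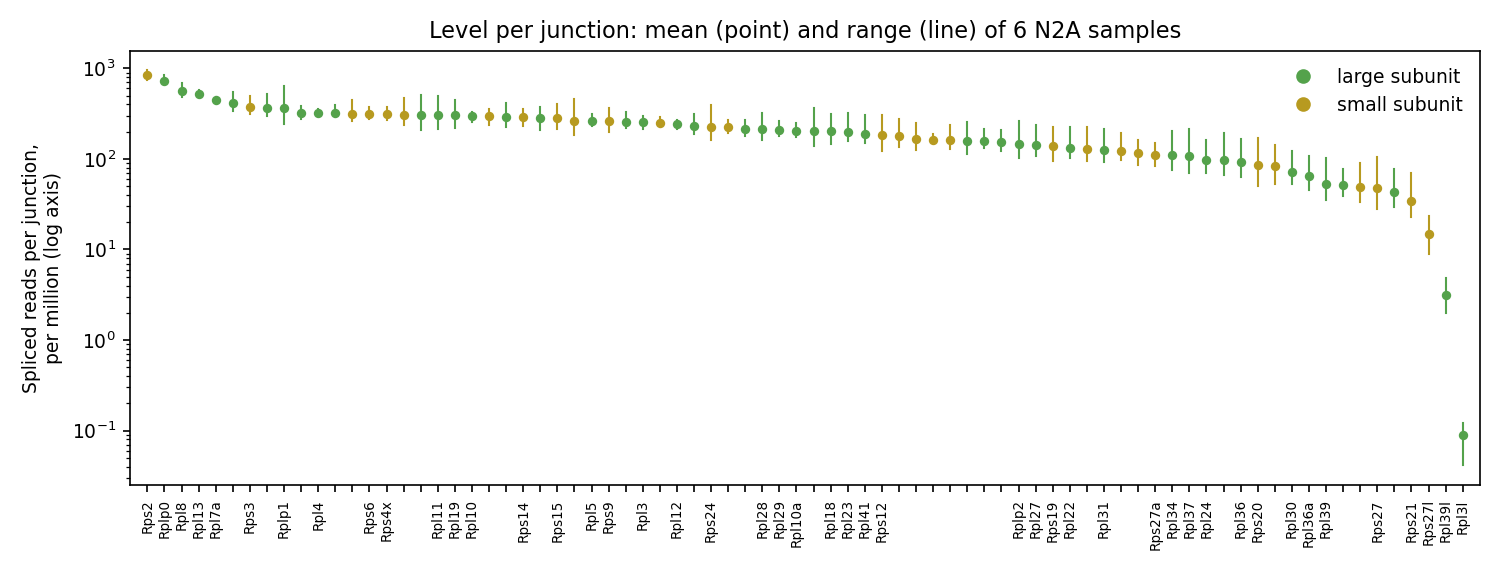
Spliced reads per junction in CPM (log axis) for the 78 ribosomal protein genes, ordered by level, with names at the genes described in the text; points are means and lines the range over the 6 N2A libraries. Rps2 and Rplp0 lead, the median gene stands at 204, and Rps27l, Rpl39l and Rpl3l fall away at the right.

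The genes of both subunits together took 6.77%, 9.97% and 7.37% of all spliced intron-event reads in siNT 1 to 3, and 8.23%, 7.23% and 7.82% in siQk 1 to 3. The means were 8.04% ± 1.70 (SD, n = 3) in siNT and 7.76% ± 0.50 (SD, n = 3) in siQk, and the siQk values lie inside the siNT range. siNT 2 was the highest library for both subunits: 6.65% for the large subunit against 4.62% to 5.55% elsewhere, and 3.33% for the small subunit against 2.16% to 2.68%. Without siNT 2, the difference siQk minus siNT changed sign, from -0.277 to 0.690 percentage points. By exon-event reads, which touch 37 of the 78 genes, the share was 0.646%, 0.970% and 0.718% in siNT and 0.760%, 0.704% and 0.768% in siQk, with the same library highest.

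**Figure D2:**
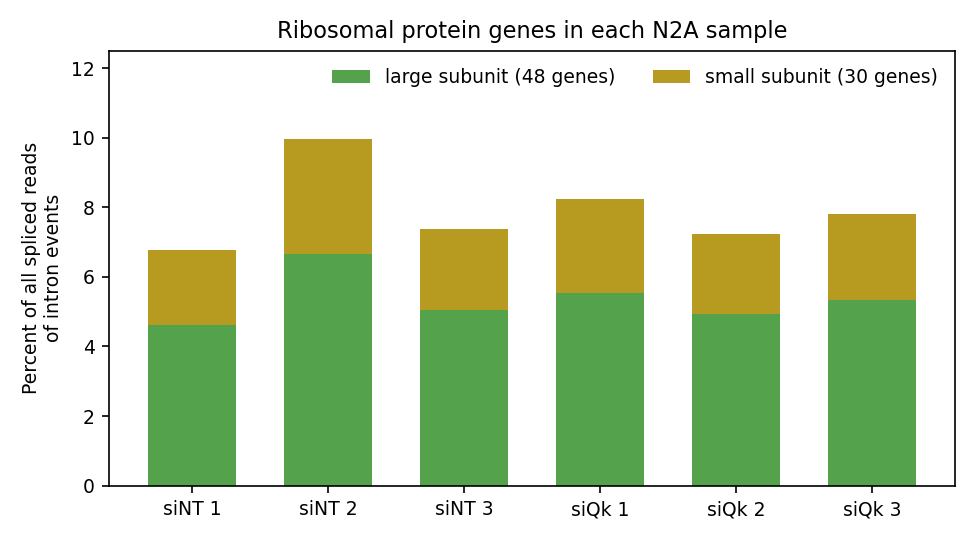
Percent of all spliced intron-event reads in ribosomal protein genes for each N2A library, split into large (48 genes) and small subunit (30 genes). siNT 2 reaches 9.97%, and the other 5 libraries lie between 6.77% and 8.23%.

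The libraries differed most in the shortest members. Rpl41, the smallest ribosomal protein, with a coding length of 75 nt (stop codon not counted), had 930, 2426 and 917 CPM in siNT 1 to 3 and 1660, 885 and 962 CPM in siQk 1 to 3. siNT 2 was highest and siQk 1 second, and the groups overlapped. Rpl37, a zinc-binding protein of the large subunit (291 nt), had 232, 687 and 242 CPM in siNT and 470, 238 and 246 in siQk. Rps27, a zinc-binding protein of the small subunit (252 nt), had 128, 346 and 125 CPM in siNT and 188, 115 and 103 in siQk. The same pair of libraries stood out in all 3 genes. In long members the same libraries stood out less: Rpl4 (1257 nt), a large subunit protein that reaches into the exit tunnel, had 2669, 3244 and 2864 CPM in siNT and 2812, 2739 and 2862 in siQk, and Rplp0 (951 nt) had 3651, 4339 and 3830 in siNT and 3934, 3696 and 3798 in siQk.

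This held along the whole family. Across the 78 genes, the deviation of a library from the gene's own mean over the 6 libraries (log2 scale) ranked with coding length at a Spearman correlation of -0.917 in siNT 2 and -0.919 in siQk 1. It ranked the other way in siNT 1 (0.785), siNT 3 (0.845), siQk 2 (0.860) and siQk 3 (0.860). With the length of the annotated mRNA the correlations were weaker, -0.61 in siNT 2, -0.643 in siQk 1 and 0.544 to 0.594 in the others. These are descriptions over genes of the same 6 libraries, which are not independent points, and the deviations of a gene sum to 0. The SD of a gene over the libraries ranked with coding length at -0.928 and with mRNA length at -0.628. siNT 2 was the highest library for 69 of the 78 genes, and for 8.75% of all other genes tested. siNT 2 and siQk 1 were the highest pair for 56 genes, and the remaining 22 include Rpl3, Rpl4, Rpl5, Rpl7a, Rps2, Rps3 and Rps6.

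In the 26 shortest members (75 to 396 nt coding) the median deviation was 0.87 in siNT 2 and 0.40 in siQk 1, and between -0.38 and -0.26 in the other 4 libraries. In the 26 longest (564 to 1257 nt) it was 0.17 in siNT 2 and -0.02 in siQk 1. Other genes of the short coding class (470 genes) also had their highest medians in these libraries, but smaller ones, 0.20 in siNT 2 and 0.19 in siQk 1. Per the labels' protocols, the libraries were cut from a gel at 400 to 600 bp, with inserts of 540 nt on average. The annotated mRNA used here was shorter than that average for 17 of the 78 genes, the shortest being 345 nt for Rps27. The part of size selection in these differences was not tested.

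**Figure D3:**
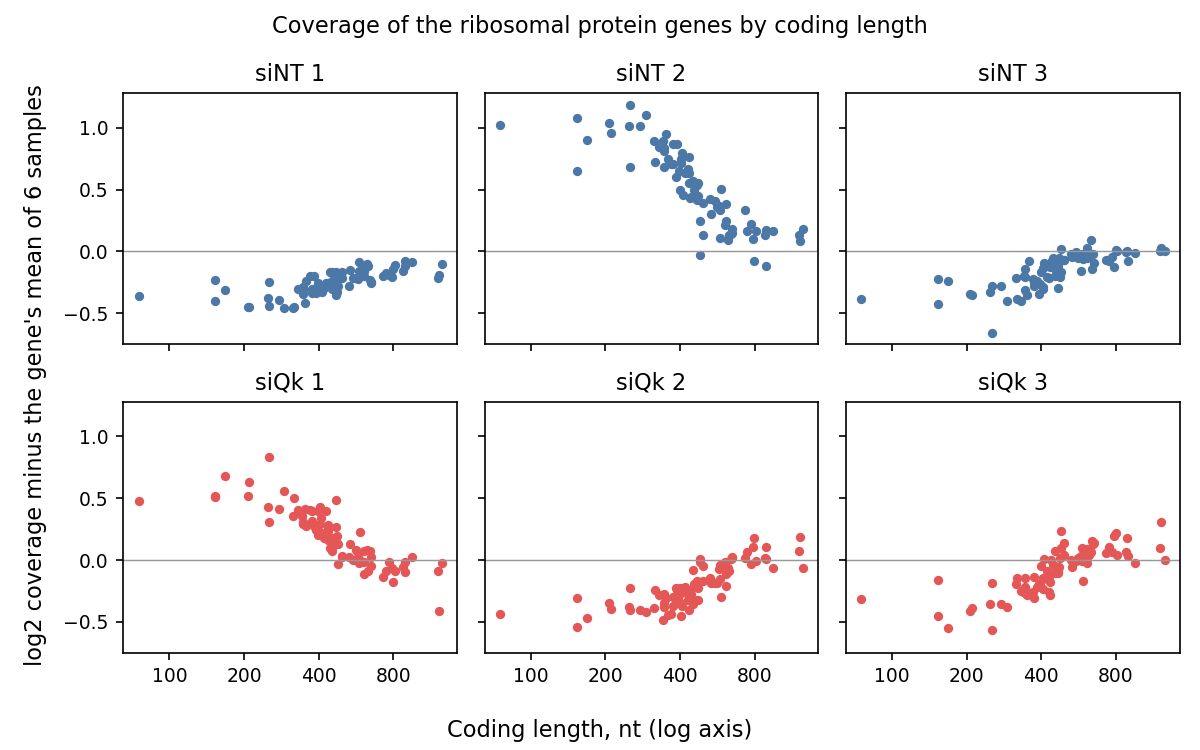
Deviation of each library from the gene's mean over 6 libraries (log2 scale) against coding length (nt, log axis), one panel per N2A library and one point per ribosomal protein gene. In siNT 2 and siQk 1 the points fall with length, from about 1 and 0.5 for the shortest genes toward 0, and in the other 4 libraries they rise.

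No ribosomal protein gene passed the test for a change in spliced coverage after Qk knockdown. All 78 genes were tested by the spliced reads of their introns on the log2(CPM + 0.5) scale, which understates the change of genes with low coverage. None passed an adjusted p of 0.05 (limma, lowest adjusted p 0.480), while 3.33% of all 11085 genes tested were called. An unadjusted p under 0.05 was found for 0 of the 78 genes and for 18.5% of all genes. The siNT and siQk values overlapped for all 78 genes, whereas they did not overlap for 24.5% of all genes tested. Fold changes were positive for 22 genes and negative for 56, with a median of -0.08 beside 0.02 over all genes. The median was -0.09 in the large and -0.08 in the small subunit. Without siNT 2 the median of the 78 turned to 0.15, and without siQk 1 it was -0.16. Without both it was 0.05, and 0 genes were called in each of these fits.

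The stalk proteins, which bind elongation factors, had log2 fold changes of -0.05 for Rplp0 (SE 0.08), -0.26 for Rplp1 (SE 0.35) and -0.23 for Rplp2 (SE 0.32). Rplp1 had 561, 1277 and 599 CPM in siNT and 882, 491 and 578 in siQk, highest in siNT 2, with overlapping groups. The pair that carries 5S ribosomal RNA and binds Mdm2 when assembly fails, Rpl5 and Rpl11, stood at 0.02 (SE 0.09) and -0.07 (SE 0.13). Rpl3, which lies near the peptidyl transferase centre, stood at 0.05 (SE 0.10), Rpl10a of the L1 stalk at 0.06 (SE 0.11), Rpl12 at 0.08 (SE 0.10) and Rpl22 at -0.11 (SE 0.25). Rpl10, which joins late and is needed for subunit joining, had the largest positive value of the large subunit, 0.16 (SE 0.10), with 1319, 1705 and 1403 CPM in siNT and 1626, 1560 and 1721 in siQk.

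In the small subunit, Rps6, the substrate of the S6 kinases, stood at 0.06 (SE 0.10) and Rps3 at the mRNA entry at -0.04 (SE 0.13). Rps24 and Rps19, both mutated in Diamond-Blackfan anaemia, stood at -0.05 (SE 0.21) and -0.27 (SE 0.29). The largest negative values were -0.44 for Rps27 (SE 0.42) and -0.29 for Rps20 (SE 0.29), and the largest positive ones 0.28 for Rps27l (SE 0.41), 0.15 for Rps4x (SE 0.10) and 0.15 for Rps27a (SE 0.25), which is made as a fusion with ubiquitin. Rpl7a, a large subunit protein whose introns host snoRNAs, stood at 0.14, with 3017, 3156 and 3358 CPM in siNT and 2954, 3771 and 3880 in siQk. Rps27l had 30.4, 66.8 and 26.1 CPM in siNT and 74.2, 35.4 and 36.5 in siQk, high in siNT 2 and siQk 1 like the other short genes. The plot of fold changes shows that standard errors shrink from the short to the long genes.

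**Figure D4:**
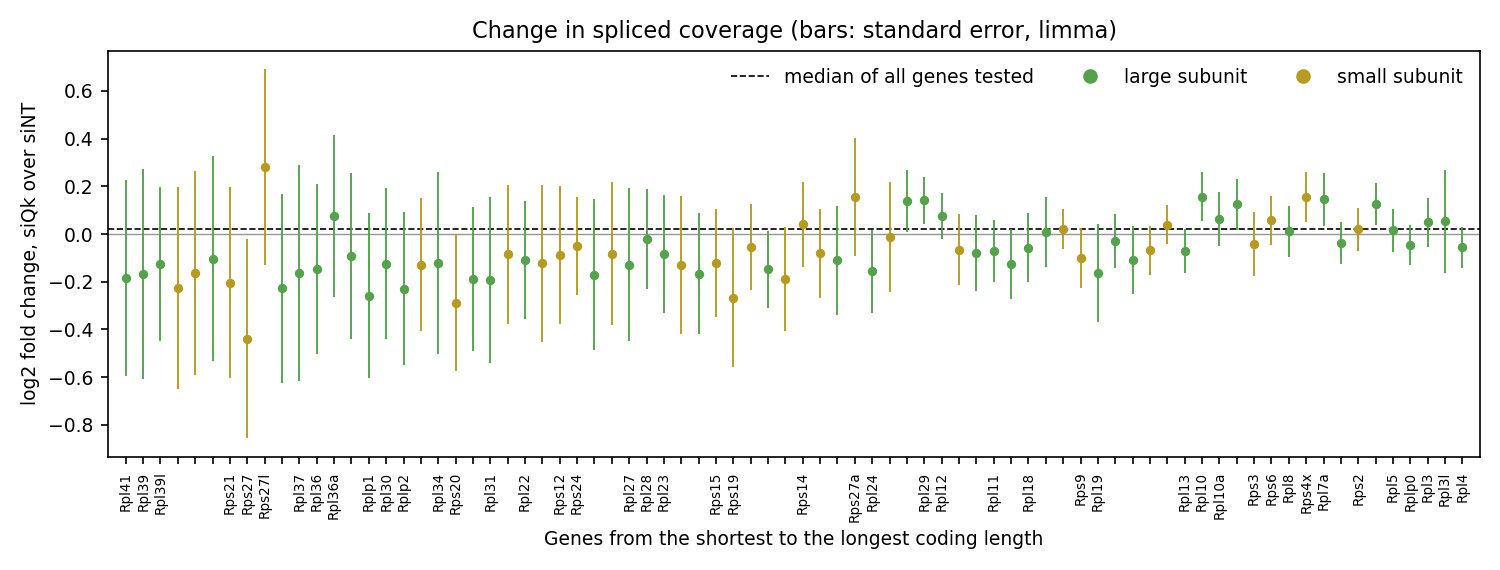
Log2 fold change of spliced coverage, siQk over siNT, for 78 ribosomal protein genes ordered by coding length, with names at those described in the text; bars are limma standard errors and the dashed line is the median of all genes tested (0.02). Errors exceed 0.3 for most of the shortest genes and are about 0.1 for the longest.

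Exon-event reads gave 1 call. They covered 37 ribosomal protein genes, of which 23 passed the filter of a mean of 20 reads, and 4.54% of all 10851 genes were called. Rps9, a small subunit protein involved in decoding fidelity, had 16.5, 19.2 and 16.8 CPM in siNT and 25.4, 23.2 and 24.1 in siQk. The groups did not overlap, and the log2 fold change was 0.46 (SE 0.11, adjusted p = 0.0479). All of these reads come from 1 exon of 174 nt (chromosome 7, 3706008 to 3706181), included at 98.8% to 99.8% in the 6 libraries. This exon lies inside intron 4 of the annotated mRNA used here, so that percentage is not a share of all Rps9 transcripts. By spliced reads over all of its introns Rps9 had 886, 1248 and 973 CPM in siNT and 994, 890 and 986 in siQk, a log2 fold change of -0.10 (adjusted p = 0.741). Without any 1 of the 6 libraries the exon-event call was lost, with adjusted p between 0.0567 and 0.180. Rps4x, the X-linked form of a small subunit protein, was next, from 2.98 CPM ± 0.424 (SD, n = 3) to 5.07 ± 1.15 (SD, n = 3), with a log2 fold change of 0.67 (adjusted p = 0.0769), on reads of a single 3 nt event included at 0.260% or less. The other large positive values were 0.42 for Rps2, 0.41 for Rpl22 and 0.30 for Rpl19, and the largest negative ones -0.35 for Rpl18, -0.21 for Rps21, -0.16 for Rpl39l and -0.16 for Rps19. None of these 7 passed (adjusted p 0.230 or more), and 3 of the 23 genes had an unadjusted p under 0.05 (Rps9, Rps4x and Rpl22), 13.0% beside 20.4% of all genes. The Rpl22 and Rpl18 values rest on a single exon event each, of 55 and 15 nt. By spliced intron reads Rps2, Rpl22 and Rpl19 stood at 0.02, -0.11 and -0.16, and Rpl18, Rps21, Rpl39l and Rps19 stayed negative.

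Other genes of translation were read the same way, by spliced intron reads. None of 8 ribosomal proteins with other names (such as Rpsa, Rack1 and Fau) was called, with a median log2 fold change of -0.02. Also 0 genes were called among 77 mitochondrial ribosomal proteins (median 0.07), 72 of 78 listed ribosome biogenesis factors (0.07), 24 translation factors with TOP mRNAs (0.07) and 21 nonsense-mediated decay factors (0.04). In these 5 lists 0, 5, 6, 1 and 1 genes had an unadjusted p under 0.05, at most 8.33% of a list, beside 18.5% of all genes. By exon events 1 of 17 translation factors was called, upward, and none of the other 4 lists held a called gene.

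Most cassette exon events of these genes with enough reads showed nearly full inclusion, and a few almost none. Of 65 exon events, 36 had at least 10 reads in every library. Percent spliced in (PSI) is the share with the exon among the transcripts an event's reads cover, not among all transcripts of the gene. Of the 36, 29 had a mean PSI above 98 and 6 below 2, the latter 16.7% beside 10.9% over all exons. The 1 between was 2.78% of the 36, beside 11.8% over all exons. The share above 98 over all exons was not counted. Examples above 98 are the 4 exon events of Rpl8, with 13611 or more reads in every library, and the 5 of Rps3. The single testable exon was an 81 nt exon of Rps19 (chromosome 7, 24886107 to 24886187), at 95.2%, 95.8% and 98.3% in siNT and 97.4%, 100% and 98.3% in siQk. It lies inside intron 3 of the annotated mRNA used here. Its groups overlapped, and it was not called (adjusted p = 0.648). Of all 12930 exons tested, 1.18% were called. Among the 6 below 2, one of 19 nt in Rps27l was included at 0.230% to 1.36%.

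Most introns showed almost no retention. Of 344 introns of the 78 genes, 334 had at least 10 reads in every library, and 302 had a mean retention under 2%. The median retention per library ran from 0.110% to 0.255%, beside 0.0800% to 0.310% over 101021 other introns. Retention of 2% or more was seen in 9.58% of the ribosomal protein introns and in 17.8% of the others. This leaves 32 introns in 28 genes. Of the 32, 25 were first introns and 16 lay in a 5′ untranslated region, while of the 302 under 2%, 58 were first introns and 18 lay in a 5′ untranslated region.

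Retention was also read in the introns that host a snoRNA. In GENCODE M21, 53 of the 334 introns, in 28 genes, hold a snoRNA. Their median retention in siNT was 0.260%, beside 0.163% for the 281 without, and the highest was 7.32%. Of these 53, 5 had a retention of 2% or more and 0 had 10% or more. Of the 281 others, 27 and 10 did, so that both sets held a similar share at 2% or more, and with 53 introns few at 10% or more could be seen.

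The highest values belonged to 2 short first introns, that of Rpl41 in an mRNA other than the 1 used for its length. Their PSI is a share among the transcripts an event's reads cover, not among all transcripts of the gene. The Rpl10 event had 537 reads in siNT 2, a library of 28321854 spliced reads, where the median Rpl10 junction stood at 304 CPM. The 104 nt first intron of Rpl10 (mm10, X chromosome, 74270875 to 74270978, 5′ untranslated region) was retained at 90.9%, 85.8% and 87.7% in siNT and 86.0%, 94.1% and 92.8% in siQk. The 114 nt intron of Rpl41 (chromosome 10, 128548974 to 128549087, minus strand, 5′ untranslated region) was retained at 59.0%, 51.7% and 56.6% in siNT and 65.1%, 66.1% and 66.6% in siQk. Next were introns of Rpl27 (266 nt, 19.8% ± 2.05 in siNT, SD, n = 3), Rpl34 (818 nt, 18.1% ± 7.07), Rpl31 (214 nt, 14.1% ± 2.06), Rpl10a (326 nt, 11.8% ± 3.09), Rpl30 (107 nt, 11.8% ± 2.77) and Rps27a (95 nt, 10.7% ± 2.55). Of the 10 introns retained at 10% or more over both groups, all 10 lie inside an exon of another annotated transcript of the same gene. Of all 32, 23 do, as do 90 of the 302 under 2%. Reads of a transcript in which the segment is exonic and reads of an unspliced intron cannot be told apart here.

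The splice sites of these introns and of the Rpl28 intron below are shown because these are the introns the results on retention turn on; no relation of sequence to retention was tested. Each 5′ site has the last 3 exon bases, then GT in capitals and the next 4 intron bases. Each 3′ site has the last 20 intron bases, ending in AG in capitals, then 3 exon bases. They were read from GENCODE M21 transcripts that contain the intron.
Rpl10 5′ site: gcgGTgagt
Rpl10 3′ site: ctttgactgtttcattacAGcca
Rpl41 5′ site: ttgGTtagt
Rpl41 3′ site: ttttccctctttctctctAGaga
Rpl28 5′ site: gagGTgagt
Rpl28 3′ site: cccccccggcttctccccAGccg
All 3 have GT and AG ends. The 18 bases before AG, where the pyrimidine tract of an intron usually lies, hold 5 purines in Rpl10, 0 in Rpl41 and 2 in Rpl28.

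Retention can also be read from its 2 exon-intron junctions, which the deposited table compares with a p-value for balance. In the Rpl10 and Rpl41 introns the junctions were unbalanced (p under 0.05) in all 6 libraries, and in the Rpl28 intron in none. Of the 32 introns, 17 were unbalanced in every library and 7 in none. Values for unbalanced introns are therefore read as coverage that is uneven between the intron's ends.

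Of 32 introns tested between siQk and siNT, 0 were called, beside 0.113% of all 17664 introns. A call needed an adjusted p under 0.05 and a difference of 10 points. The median absolute difference was 0.775 points, beside 1.16 over all introns tested, and 19 introns were higher and 13 lower in siQk. By unadjusted p, 2 of the 32 were under 0.05, the introns of Rpl28 and Rpl41, beside 5.02% of all introns tested.

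The Rpl28 intron (322 nt, chromosome 7, 4792999 to 4793320) is the first of 4 in a gene of the large subunit. Its retention was 11.8%, 9.07% and 9.85% in siNT and 5.13%, 6.87% and 5.59% in siQk. All siQk values lie below all siNT values. The means were 10.2% ± 1.41 and 5.86% ± 0.902 (SD, n = 3), a difference of -4.38 points that passed the adjusted p (0.0482) but not the size of 10 points. Its reads numbered 1252 to 4681 per library. Without any 1 library the adjusted p lay between 0.0605 and 0.361, and without both siNT 2 and siQk 1 it was 0.0848. The spliced coverage of Rpl28 itself was 654, 1126 and 767 CPM in siNT and 957, 684 and 826 in siQk, a log2 fold change of -0.02 (adjusted p = 0.976), and its other introns stayed under 2%.

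The Rpl41 intron was higher in every siQk library than in any siNT library. Its means were 55.8% ± 3.70 in siNT and 65.9% ± 0.748 in siQk (SD, n = 3), a difference of 10.1 points that did not pass (adjusted p = 0.108). It was called without siNT 1 (11.7 points, adjusted p = 0.0343) and without siQk 1 (10.5 points, adjusted p = 0.0106), and also where introns of any PSI were tested (adjusted p = 0.0148). Without siNT 2 the difference was 8.11 points. The first intron of the Rpl41 mRNA used for its length (268 nt) stood at 4.50% ± 1.08 in siNT and 5.77% ± 0.909 in siQk. It was not called. Rpl10 went from 88.1% ± 2.58 to 91.0% ± 4.35, with overlapping groups (adjusted p = 0.988). Next in size were Rpl36a (8.41% to 11.0%), Rpl27 (from 19.8%, 2.22 points higher in siQk), Rpl36 (6.13% to 8.22%), Rpl7a (7.11% to 5.32%) and Rpl12 (7.35% to 8.95%), all with an adjusted p of 0.982 or more.

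**Figure D5:**
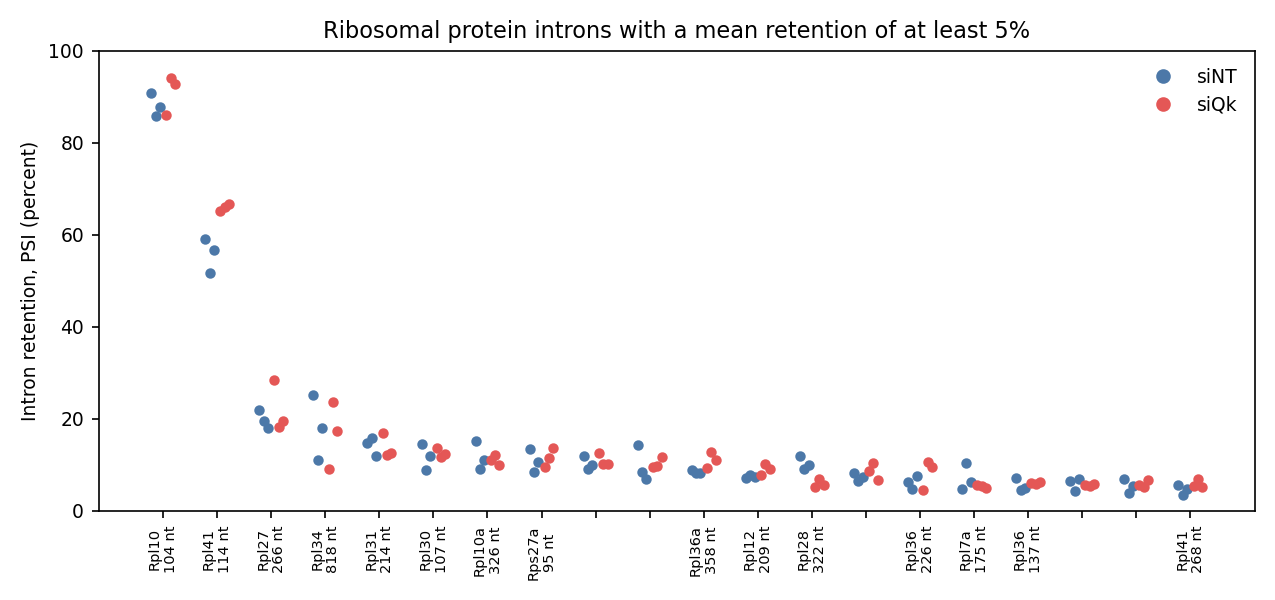
Retention (PSI, percent) of the ribosomal protein introns with a mean of at least 5% over the 6 N2A libraries, one point per library (siNT blue, siQk red), with names at those described in the text. The Rpl10 intron lies at 85.8% to 94.1%, the Rpl41 intron of 114 nt at 51.7% to 66.6%, and the siQk points of Rpl28 lie below its siNT points.

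Qk binds sites with the core ACTAAC or ACTAAT, written as DNA. On the transcript's strand, 1 of the 23 tested ribosomal protein introns with sequence here held either hexamer, the 108 nt intron of Rpl24, and the Rpl28 intron and the 114 nt Rpl41 intron held none. Of all 3175 tested introns with sequence 10.5% held one, and of the 376 between 258 and 386 nt, close to the Rpl28 intron in length, 6.12%. Rpl24 retention was 2.61%, 2.32% and 2.50% in siNT and 3.37%, 3.09% and 3.43% in siQk. Its groups did not overlap, and it was not called (difference 0.820 points, unadjusted p = 0.102). The groups also did not overlap in introns of Rpl9 (120 nt) and Rpl36a (358 nt), which held no hexamer. The share of all tested introns without overlap was not counted. These are letter matches within introns, not sites.

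Alternative 3′ splice sites gave 61 tested events in 27 genes, of which 0 were called, beside 0.101% of 9943 events tested, and 1 had an unadjusted p under 0.05, beside 4.85% of all. Each event here and below is 1 site. Sites of the same choice mirror each other, so these counts are not of independent choices. The largest difference was in Rps14, a small subunit protein lost in the 5q- syndrome, whose main site went from 82.5% ± 1.85 to 67.0% ± 16.5 (SD, n = 3). The siQk libraries stood at 68.6%, 82.6% and 49.8%, so siQk 3 is lowest, and the groups overlapped (adjusted p = 0.992). Rpl29 had 58.8%, 68.8% and 78.1% in siNT and 19.6%, 89.7% and 67.5% in siQk at its main site, a spread within siQk that is wider than the difference of -9.62 points. Rpl13 went from 63.3% ± 8.21 to 72.7% ± 5.46 at one of its sites. The Rps14 and Rpl29 events rest on 16 to 89 reads per library.

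Among alternative 5′ splice sites, 80 events in 27 genes were tested and 0 were called, beside 0.107% of 7498, and 4 had an unadjusted p under 0.05, beside 5.13% of all. The 4 are sites that share a choice in Rpl18 and in Rpl23. Rpl18, a large subunit protein, used a distant site at 6.38%, 3.05% and 4.32% in siNT and 16.6%, 9.84% and 11.3% in siQk. The groups did not overlap, but the difference of 8.00 points had an adjusted p of 0.291. The event rests on 71 to 257 reads. The other large differences, in Rpl23 (43.0% to 52.8%), Rps15 (17.7% to 25.2%) and Rpl29 (69.1% to 59.5%), had adjusted p-values of 0.940 or more.

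The neurons enter through microexons, exons of a few bases up to a few codons. The authors' deposited table lists 4 exons of ribosomal protein genes among 2469, with 1 combined value per condition, so no spread between samples can be given. Columns A and B of that table were read as untreated and cycloheximide, the order of its title. The exons are shown because these are all the values the family has in neurons. Capitals mark the annotated stop codon in Rps24 and, in Rps12, the bases of a 6 nt exon that the N2A table lists at the same place.
Rps24, 18 nt: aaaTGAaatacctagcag
Rps12, 15 nt: gaaacctagGAAAAG
Rpl41, 23 nt, first: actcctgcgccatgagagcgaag
Rpl41, 23 nt, second: tggcggaagaagagaatgcgcag

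The Rps24 exon (mm10, chromosome 14, 24494052 to 24494069, plus strand) adds 3 coding bases and then the stop codon in its annotated mRNA. In the authors' deposited table it was included at 90.6% in untreated neurons and 52.7% with cycloheximide, a difference of -37.9 points with a probability of 0.989. The Rps12 exon (chromosome 10, 23786625 to 23786639, minus strand) is wholly coding in its annotated mRNA. In the authors' deposited table it went from 46.0% to 68.4%, 22.4 points higher, with a probability of 0.960. Both pass the rule of 10 points and a probability of 0.9, which 232 of the 2469 exons (9.40%) of the authors' deposited table pass. Of the 2 Rpl41 exons in the authors' deposited table, both on the minus strand, the second (chromosome 10, 128548658 to 128548680) was at 94.5% untreated and 91.5% with cycloheximide, and the first (128548949 to 128548971) at 0.0172% and 0.0211%.

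In N2A cells the Rps24 exon was not measured, and the Rps12 exon only in a 6 nt form with few reads. The 18 nt exon of Rps24 is not among the gene's 3 exon events used here, so its reads in N2A are not known. Of those 3 events, which lie at other positions, 2 had no reads. The 6 nt form of the Rps12 exon had 4 reads or fewer in each library. The first Rpl41 exon has the coordinates of an alternative 3′ splice site event of the N2A table, with 264 to 977 reads per library. That site was used at 1.63%, 2.14% and 2.26% in siNT and 1.55%, 4.26% and 1.30% in siQk, with overlapping groups (adjusted p = 0.997). This is a share among 3′ sites and not the inclusion of an exon, so it is another quantity than the neuron values. The list of neural microexons that the authors deposited names no ribosomal protein gene.

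Annotated start sites were searched for the pyrimidine run the family is known for. RefSeq promoter entries (GRCm38.p6) were matched by symbol for 60 of the 78 genes. Of these, 14 (23.3%) had a start at C followed by at least 4 more pyrimidines, that is a run of at least 5 beginning at the annotated start, beside 799 of 26965 other genes (2.96%). The longest run in a ribosomal protein gene was 13 bases. A start annotated a few bases away from the one used in the cell is not counted here.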

How the data were processed

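Polyadenylated RNA of 6 N2A and 4 neuron samples was sequenced. The authors deposited, per the file headers, a percent spliced in for each event and N2A sample, on mm10 per the submitters' processing notes, with a quality cell (another kind of value, text) that holds inclusion and exclusion reads and, for introns, a p-value for junction balance. For neurons the authors deposited PSI fractions per condition, with a difference and a probability that are scores without a spread over samples. The aligner and event caller are not given in the sources used here. Of the deposited list of neural microexons, whose PSI values are fractions, only the gene names were read.

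Coverage was computed as exon-event reads summed per gene over the library total (CPM), or as spliced reads of intron events; a read can serve several events. log2(CPM + 0.5) was fitted over all genes that averaged 20 or more reads, by limma 3.58.1 in R 4.3.3 (trend, robust, two-sided, no covariates), 3 siNT against 3 siQk, with Benjamini-Hochberg adjustment over all genes. The intron-event reads were listed as an alternative and are reported first because the exon events cover few of these genes. Events with at least 10 reads in every library and a mean PSI from 2 to 98 were fitted on log2((inclusion + 0.5)/(exclusion + 0.5)) over all events of a class. A call needed an adjusted p under 0.05 and 10 points. The scripts were tested on simulated data. A few items are not reported here. Members, lists and tests were chosen with earlier results of these data known.

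Named were the always-listed members, those called, the 5 largest changes in each direction and the events with the largest differences or highest retention; Rpl37, Rpl4, Rps9 by introns, Rpl24 and single comparisons of levels were chosen after their values were seen. Lengths, positions and splice sites come from GENCODE M21. Lengths use 1 mRNA per gene (best APPRIS rank, then support level, then shortest). Intron positions use that mRNA or, where it lacks the intron, another protein-coding mRNA of the gene. Splice sites were read from a transcript that contains the intron. Python 3.11.15, pandas 2.3.3, scipy 1.17.1 and matplotlib 3.10.9 were used. Depth sets the precision: PCR copies cannot be told from molecules, so reads overstate it. The alternatives left out each replicate, changed filters, pseudocount (2 CPM), scaling and weights, or added a replicate block. P-values measure the spread between these samples.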

Additional observations from a re-analysis of the deposited data

How the results depend on the processing

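The count of 1 ribosomal protein gene called by exon-event reads was 0 without each replicate in turn, with a mean of at least 200 reads and with scaling by the median ratio. It was 2 with the replicate block (Rps4x, Rps9), 3 with array weights (Rps2, Rps4x, Rps9), and 2 without both siNT 2 and siQk 1 (Rps3, Rps9), a setting chosen after seeing the data. With no filter on reads it was 1, but Rpl11 in place of Rps9. By spliced intron reads it was 0, and 0 again in each alternative of that measure, the replicate block, another scaling and both ways of leaving out libraries included; those alternatives were also chosen after seeing the data. The Rps9 log2 fold change reversed there, to -0.10; the cause was not tested. Whether replicate numbers pair the samples was not settled. Deviations of same-numbered samples correlated at 0.437, -0.222 and 0.480, and those of differently numbered ones at -0.672 to 0.572.

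Intron calls numbered 0 to 1 without each replicate, 1 (Rpl41) with no filter on PSI and 1 (Rpl28) by adjusted p alone, and 0 with the replicate block, with at least 20 reads, with limma on PSI and among the 7 introns with balanced junctions. For exons and alternative 3′ and 5′ sites the count was 0 in all alternatives run, the replicate block included. The difference in the share of reads was -0.0340 points by exon events (-0.100 to 0.0620 without each replicate) and -0.277 by intron events. Of single values set against their alternatives, 48 of 375 for coverage and 21 of 298 for events changed sign, and 1 of these, Rps9, was a called value. Over all genes, the block raised the calls by exon events from 493 to 1551 and by intron events from 369 to 1083. Depth limits the alternative splice sites most, the least covered of which rest on 16 reads or fewer in a library.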
